A study of Mus musculus with 11 samples.

Results

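NICD mutant liver was compared with control liver at postnatal day 2, on 3 arrays of mutant pups and 3 arrays of control pups, which are 6 of the 11 arrays of the series. The arrays were chosen by their labels alone. Mutant pups were double transgenic for AFP-Cre and Rosa26-lsl-NICD, so that Cre made under the alpha-fetoprotein promoter removes a stop cassette and the recombined cells produce NICD. Control pups were mono transgenic for Rosa26-lsl-NICD and lacked Cre. All pups had a hybrid 129 x C57BL/6 background, and RNA came from whole liver, so every liver cell type contributes to a value. No group carried AFP-Cre alone, and effects of Cre and of NICD cannot be told apart. The remaining 5 arrays, 2 of control and 3 of mutant liver at birth (day 0), are used only to set the day 2 differences beside those at birth.

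NICD is the intracellular part of the Notch receptor, which ligand binding normally releases from the membrane. It enters the nucleus, joins the DNA-binding protein RBPJ and a Mastermind co-activator, and switches on targets such as the HES and HEY repressors. In developing liver, Notch signalling around the portal vein directs hepatoblasts, the common precursors of hepatocytes and bile duct cells, towards the duct fate. Newborn mouse liver is also still a site of blood formation, so its RNA includes that of erythroid and megakaryocytic cells.

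Levels are on a log2 scale on which 0 is the 75th percentile of an array's processed spot intensities, and each unit is a factor of 2. A difference is the mean of the mutants minus the mean of the controls, with the standard error (SE) of the fit. Genes were tested with limma and passed at a Benjamini-Hochberg adjusted p under 0.05. The verbs rose and fell are used only for genes that passed, and they are relative to each array's own 75th percentile. Before scaling, that percentile was 815.2, 793.7 and 974.9 intensity units in controls and 1301.5, 1052.8 and 1112.4 in mutants, and the share of spots that the scanner software called well above background lay between 63.3% and 65.7%. Arrays correlated across genes at 0.9848 to 0.9897 within the controls, 0.9894 to 0.9926 within the mutants and 0.9492 to 0.9666 between the groups. Probes of the Y-linked genes Ddx3y, Eif2s3y and Kdm5d placed 2 females and 1 male in each day 2 group. At birth they placed both controls as male and all 3 mutants as female, so sex and genotype cannot be told apart in any day 0 difference given below. Precision is limited by how few arrays there are, and no label states that arrays of a group came from different litters. In whole liver, fewer cells of a type and less RNA per cell cannot be told apart.

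Of 15192 genes tested, 2162 (14.2%) were higher and 2032 (13.4%) lower in mutants, so 27.6% passed in either direction. The shares of 14.2% and 13.4% are the background for every list count below. The lists were chosen with earlier results of these data known, so a share above the background is a description and not a test. At least 2-fold differences were seen for 1112 of the higher and 602 of the lower genes. The 3 mutant arrays lay on the same side of the 3 control arrays for every gene that passed, as they did for 21.7% (above) and 25.3% (below) of all genes tested. The median difference over all genes was -0.08. Some genes were above background in 1 group alone: 162 higher genes were well above background on all 3 mutant arrays and no control array, and 27 lower genes showed the opposite. Lower calls numbered 2032 with all arrays and 1153, 957, 2069, 1051, 1042 and 1204 without control 1, control 2, control 3, mutant 1, mutant 2 and mutant 3 in turn, while higher calls numbered 1529 to 1993.

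**Figure D1:**
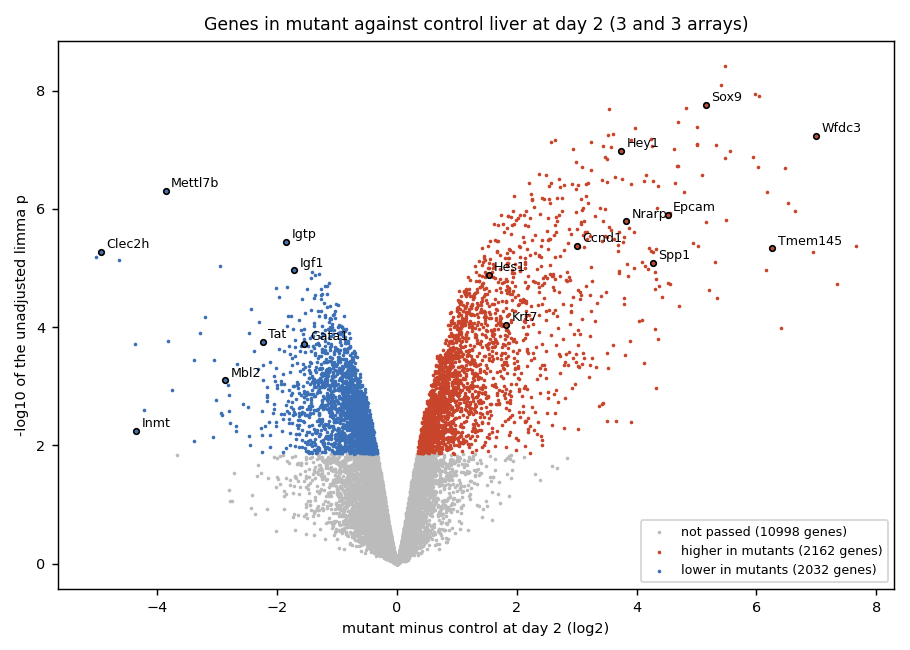
Each point is a gene, placed by its day 2 difference (mutant minus control, log2 scale) and by -log10 of its unadjusted limma p over 3 and 3 arrays. The 2162 genes that rose reach beyond 6 log2 units to the right, and the 2032 that fell reach less far to the left. The labelled genes are described in the text.

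The targeted pathway was read first from Notch1, the receptor whose intracellular part NICD is taken to be. Its level was -2.31, -2.18 and -2.35 in controls and -1.95, -1.80 and -1.88 in mutants. The groups did not overlap, and the difference was 0.41 ± 0.11 (adjusted p = 0.0352), or 1.33-fold. This call was lost when any single array was left out, with adjusted p from 0.0623 to 0.0998. Its probe lies at chr2:26281261-26281319 (mm8), and whether that stretch is within the transgene was not determined, so the reading checks endogenous plus possibly transgenic RNA and does not settle which.

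Of 23 measured members of the target list, 13 rose (56.5%, against 14.2% of all genes), 3 fell and 7 did not pass, with a median difference of 0.96 and slide medians of 0.93, 0.83 and 0.96. Nrarp, which encodes a feedback inhibitor of the NICD complex, had levels of -1.68, -1.42 and -1.77 in controls and 1.91, 2.68 and 2.03 in mutants. It rose by 3.82 ± 0.23 (adjusted p = 0.000222), or 14.2-fold, the mutant arrays all lying more than 3 log2 units above the controls. Hey1, a transcriptional repressor of the HEY family, went from -1.12, -1.23 and -1.53 to 2.33, 2.54 and 2.46, a rise of 3.74 ± 0.14 (adjusted p = 5.72e-05). Its relative Heyl went from -1.12, -1.07 and -1.82 to 2.24, 2.10 and 2.27, a rise of 3.54 ± 0.22 (adjusted p = 0.000252). Hey2 was not well above background on any control array and was on all mutant arrays (-3.89, -3.25 and -3.36), at least 5.73-fold higher.

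Hes1 encodes a HES repressor much used as a Notch readout. Its level was -2.05, -1.77 and -2.02 in controls and -0.53, -0.31 and -0.42 in mutants, a rise of 1.53 ± 0.13 (adjusted p = 0.00075), or 2.89-fold. Hes5 was above background on all 6 arrays and its difference of 0.25 ± 0.33 did not pass. Among the other members, the ubiquitin ligase gene Dtx1 rose by 2.01 ± 0.30 and the cell survival gene Bcl2 by 1.10 ± 0.11. Ccnd1, encoding cyclin D1, went from 0.17, 0.49 and -0.11 to 3.38, 3.30 and 2.87, a rise of 3.00 ± 0.21 (adjusted p = 0.000382). The 3 members that fell were Gmpr at -2.0 ± 0.34, Bhlhe40 at -1.0 ± 0.29 and Myc at -0.49 ± 0.13. Only 1 of these falls passed with the slide as a block, or without control 2, mutant 1, mutant 2 or mutant 3.

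The bases next to the start site are shown for 3 target genes that differed in response, because RBPJ recognises a short motif with the core TGGGAA. The sequences are the 250 bases before the RefSeq gene start on GRCm38.p6, written along the gene, with each match to TGGGAA on either strand in capitals. Hey2 (chr10:30842784-30843033, minus strand) rose, Nrarp (chr2:25180508-25180757, plus strand) rose, and Hes5 (chr4:154960673-154960922, plus strand) did not pass.
Hey2: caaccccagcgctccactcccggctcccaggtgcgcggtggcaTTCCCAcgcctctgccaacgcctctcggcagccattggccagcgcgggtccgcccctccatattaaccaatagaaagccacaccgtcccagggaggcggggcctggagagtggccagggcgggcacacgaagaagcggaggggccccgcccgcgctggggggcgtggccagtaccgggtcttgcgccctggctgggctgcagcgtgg
Nrarp: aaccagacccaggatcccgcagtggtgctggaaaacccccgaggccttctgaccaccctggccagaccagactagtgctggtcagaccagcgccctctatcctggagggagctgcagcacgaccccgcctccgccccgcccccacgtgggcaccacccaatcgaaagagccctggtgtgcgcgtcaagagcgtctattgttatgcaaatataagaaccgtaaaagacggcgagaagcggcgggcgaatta
Hes5: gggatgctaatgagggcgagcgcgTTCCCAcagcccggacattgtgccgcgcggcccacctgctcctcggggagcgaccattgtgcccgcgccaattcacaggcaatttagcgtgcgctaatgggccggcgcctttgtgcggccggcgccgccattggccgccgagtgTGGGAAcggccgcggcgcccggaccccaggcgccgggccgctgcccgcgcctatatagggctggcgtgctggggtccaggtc
Hey2 has 1 match, whose first base is at -207 from the gene start, read on the opposite strand (TTCCCA). Hes5 has 2, with first bases at -226 and -82, the latter on the gene's own strand. Nrarp has none in this window, which says only that these letters are not there. Of the 12 list members with an entry in the promoter table, 6 rose and 1 of those 6 holds the motif. The motif occurred in 21.5% of the 27025 RefSeq windows, 20.8% of the 11620 matched to a gene tested, 23.3% of those of higher genes, 19.1% of those of lower genes and 20.6% of the rest. The longer form GTGGGAA was in 6.43% of windows of higher genes, 4.44% of lower genes and 5.37% of the rest. Among genes at least 2-fold apart, TGGGAA was in 23.5% of windows of higher genes and 23.3% of lower genes. GTGGGAA was in 7.6% and 4.85% of those windows. No difference between these shares was tested.

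The Notch machinery itself was read from ligands, receptors and processing enzymes. Of 36 measured, 9 rose (25%, against 14.2% of all genes), 2 fell (5.56%, against 13.4%) and 25 did not pass, with a median of 0.26. Among ligands, Jag1, the ligand of the portal mesenchyme and ducts, went from -1.50, -1.35 and -1.20 to -0.02, -0.14 and 0.01, a rise of 1.30 ± 0.12 (adjusted p = 0.00114). Dll1 rose by 1.02 ± 0.18 and Jag2 by 0.93 ± 0.23, whereas Dll4, read without control 2, whose spot was an outlier, had a difference of 0.22 ± 0.21 that did not pass. Among receptors, Notch4 rose by 1.14 ± 0.13 (adjusted p = 0.00208), and Notch2 (0.57 ± 0.22) and Notch3 (0.46 ± 0.23) did not pass, with overlapping groups. Rbpj, the DNA-binding partner, was at -0.63, -0.36 and -0.39 in controls and -0.38, -0.39 and -0.59 in mutants, a difference of 0.01 ± 0.13. Aph1b, a subunit of the gamma-secretase that frees NICD, rose by 1.08 ± 0.12, with probes from 0.18 to 1.17. The 2 that fell, the Fringe glycosyltransferase genes Rfng (-0.61) and Lfng (-0.51), were 1 with the slide as a block and 1 without any single array except control 3.

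Bile duct genes rose in large part. Of 48 measured, 34 rose (70.8%), 2 fell and 12 did not pass, the median difference was 1.84, and the slide medians were 1.79, 1.60 and 1.80. At birth the median was 0.64. Of these 48 genes, 4 were above background in mutants alone. When only genes above background on all 6 arrays were kept, 30 rose and the median was 1.39. The list has 57 genes on the array, and those left out by the background filter included Cftr, Sctr, Muc1 and Mmp7. Sox9, the transcription factor of duct precursors and itself on the Notch target list, had levels of -2.86, -2.49 and -2.83 in controls and 2.39, 2.31 and 2.60 in mutants. It rose by 5.16 ± 0.15 (adjusted p = 4.52e-05), or 35.7-fold, and its 3 probes gave rises of 3.36 to 5.45. Spp1, encoding osteopontin, a secreted protein of duct cells, went from 3.85, 3.81 and 2.67 to 7.90, 7.61 and 7.62, a rise of 4.27 ± 0.33 (adjusted p = 0.00057). Control 3 was the lowest array, and the mutants were tightly grouped. Epcam, the epithelial adhesion protein used to sort duct cells, went from -3.14, -2.90 and -3.89 to 1.29, 1.20 and 1.13, a rise of 4.52 ± 0.26 (adjusted p = 0.0002), or 22.9-fold.

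Bicc1, an RNA-binding protein linked to cystic disease, went from 0.85, 1.12 and 0.87 to 4.36, 4.53 and 4.50, a rise of 3.52 ± 0.12. Spint1, a membrane inhibitor of serine proteases, rose by 4.62 ± 0.18. The 2 list members that fell were Cd24a at -0.96 and Krt23 at -0.81, and this count was 4 with the slide as a block or without control 3, and 0 without mutant 2. The cholangiocyte markers Krt19, Krt7, Epcam, Sox9 and Spp1 all rose. They are members of the same list, so they give no separate check of duct identity.

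**Figure D2:**
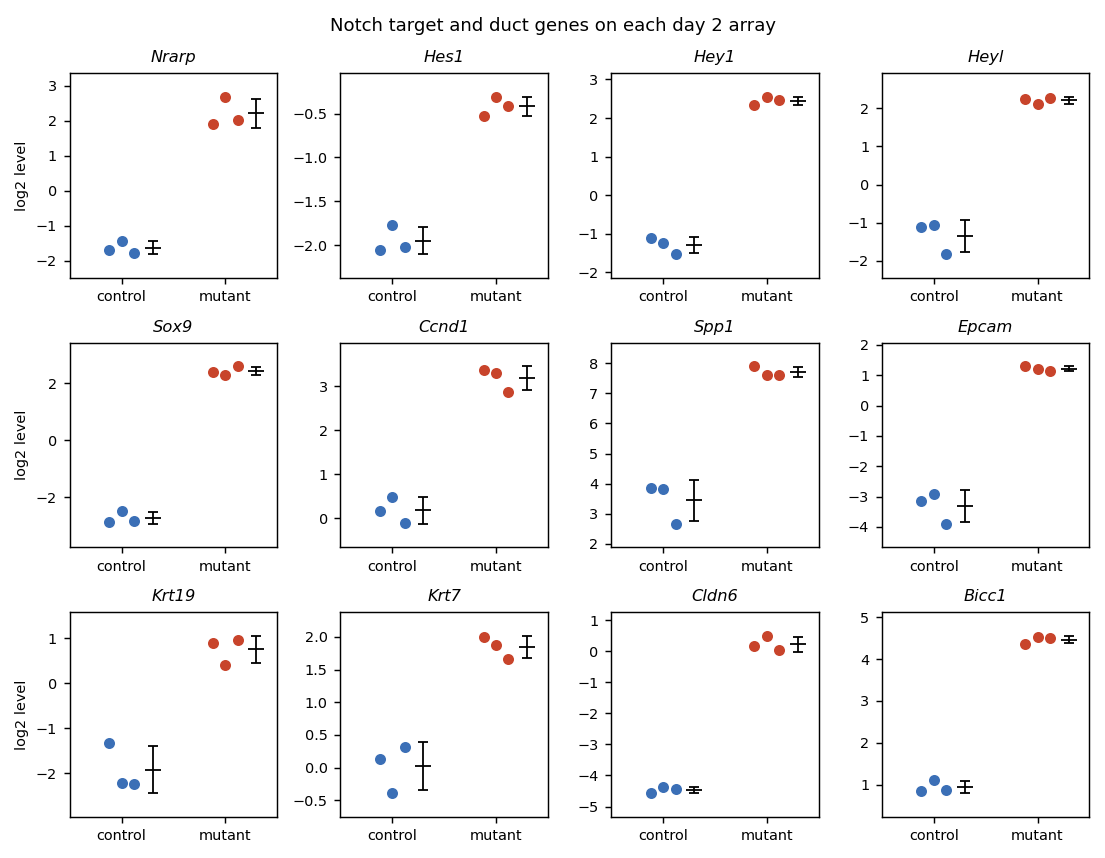
Levels of 12 Notch target and bile duct genes on each array (log2, relative to the array's 75th percentile), with 3 points for controls and 3 for mutants and the mean ± SD beside them. In every panel the 3 mutant points lie above the 3 control points, from 1.53 log2 units for Hes1 to 5.16 for Sox9.

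Epithelial structure genes were read from further lists, which share members with the duct list and so give no separate check of it. The shared members include Krt7, Krt8, Krt18, Krt19, Krt23, Cldn4 and Cldn6. Krt19, a keratin that duct cells have and hepatocytes lack, went from -1.32, -2.21 and -2.23 to 0.90, 0.41 and 0.95, a rise of 2.68 ± 0.29 (adjusted p = 0.00191). Krt7 rose by 1.82 ± 0.21 and Krt8, which hepatocytes make too, by 1.86 ± 0.22. Krt18, the partner of Krt8, rose by 0.81 ± 0.18 (adjusted p = 0.0222), a call lost without control 1, control 2, mutant 2 or mutant 3 (adjusted p from 0.0537 to 0.0645). Of 10 keratins measured, these 4 rose and 2 fell, Krt222 and Krt23, with a median of 0.29. The 2 falls became 0 without control 1 and 1 without control 2, control 3, mutant 2 or mutant 3. Among 27 tight junction genes 15 rose, 4 fell and 8 did not pass, with a median of 0.93. Cldn6, a claudin of embryonic epithelia, went from -4.57, -4.38 and -4.45 to 0.15, 0.49 and 0.03, a rise of 4.69 ± 0.15 (adjusted p = 5.65e-05). Marveld3 rose by 3.63 ± 0.24 and Cldn23 by 2.75 ± 0.15, and Cldn4 was at least 2.33-fold higher, being above background in mutants alone. The 4 that fell included Cldn2 at -1.57 and Cldn1 at -0.93, claudins that hepatocytes express, with Pard3 (-0.91) and Cldn14 (-0.73).

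Primary cilia protrude from duct cells and are absent from hepatocytes. Of 29 cilium genes measured 13 rose, 1 (Rfx2, -1.08) fell and 15 did not pass, with a median of 0.56. The count of falls was 2 with the slide as a block or without control 3. Pkd2, encoding polycystin 2, rose by 2.06 ± 0.12, and Dcdc2a by 4.21 ± 0.30. Both are also on the duct list, as are Bicc1 and Foxj1, which rose too. Tekt1, a tektin of motile cilia, was at least 9.99-fold higher and Foxj1 at least 7.56-fold, each with no control array above background. The motile cilium genes Dnah5 (-0.63), Dnah9 (-0.46), Cfap53 (0.21) and Tekt2 (1.18) did not pass. When only genes above background on all 6 arrays were kept, 11 cilium genes rose. A list built on urothelial and epithelial sodium channel genes had 6 of 14 measured members higher, 1 lower and 7 not passed, with a median of 1.11. The uroplakin gene Upk3a was not well above background in any control and was at -1.05, 0.93 and -0.95 in mutants, at least 50.5-fold higher. The sodium channel subunit genes Scnn1g and Scnn1b were likewise at least 29.5-fold and 20.1-fold higher, whereas Scnn1a, the remaining subunit, had a difference of -0.57 ± 0.19 that did not pass. The other defining urothelial markers gave no such reading: Upk2 was above background on no array, Upk1a on 1 control and 2 mutant arrays, and Upk1b differed by 0.39 ± 0.51. The basal epithelial factor Trp63 fell, by at least 3.83-fold, with no mutant array above background. When only genes above background on all 6 arrays were kept, 2 of the list's genes rose.

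Several of the largest rises concerned genes outside the usual duct vocabulary. Among genes measured on both sides, Tmem145, a membrane protein gene, went from -4.40, -3.71 and -3.02 to 2.18, 3.29 and 2.18, a rise of 6.26 ± 0.44 (adjusted p = 0.000399). Fmo2, a flavin monooxygenase better known from lung, went from -4.74, -4.44 and -5.04 to 1.45, 0.78 and 1.37, a rise of 5.94 ± 0.24 (adjusted p = 6.75e-05), or 61.4-fold, with probes from 3.57 to 5.94. Rgma, encoding a membrane-anchored BMP co-receptor first known from axon guidance, rose by 5.55 ± 0.21. The metalloprotease gene Adamts16 rose by 5.48 ± 0.22 (2.76 on its other probe), Lrrc4 by 5.47 ± 0.12, the calcium-binding protein gene S100b by 5.09 ± 0.23 and ccdc198 by 5.02 ± 0.18. Wfdc3 and Eprn also ranked here, at 6.99 and 5.02, but another probe of each gave -0.49 and -0.45, so their direction depends on the probe.

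Among genes with no control array above background, the neurotrophin receptor gene Ntrk2 was at 0.38, -0.87 and 0.75 in mutants, at least 68.6-fold higher. Rflna, a regulator of filamin, was at least 63.9-fold higher and Rasgrf1, a neuronal Ras exchange factor, at least 51.7-fold. Dpysl4, of a family first described in growing axons, was at least 29.5-fold higher. In the neural gene list, 6 of 27 measured members rose (22.2%, against 14.2% of all genes), 1 fell (Nrn1, -0.88) and 20 did not pass. Besides Ntrk2 and Rasgrf1, the members that rose included the netrin receptor gene Unc5b by 2.18 ± 0.13, and Spon1, which was above background on all 3 mutant arrays and 1 control array. With the slide as a block 4 members fell. Falls numbered 2 without control 3 and 0 without control 2, mutant 1 or mutant 2. Kept to genes above background on all 6 arrays, the list had 3 rises.

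Lists of Hippo, Wnt, TGF-beta and BMP genes held both rises and falls. In a list of Hippo and Wnt pathway members and targets, 21 of 48 rose (43.8%, against 14.2% of all genes). In the same list 6 fell (12.5%, against 13.4%) and 21 did not pass, with a median of 0.37. The YAP targets Ankrd1 and Amotl1 rose by 2.54 ± 0.12 and 1.99 ± 0.12 (adjusted p = 0.000102 and 0.000221). The 6 that fell were Rhbg (-1.77), Tbx3 (-1.62), Lect2 (-1.43), Birc5 (-0.58), Lgr5 (-0.51) and Wnt10a, at least 16.5-fold lower. The fall count was 3 without control 1 or mutant 1. Of 35 TGF-beta and BMP genes 15 rose (42.9%, against 14.2% of all genes), 4 fell (11.4%, against 13.4%) and 16 did not pass. The median was 0.38, and the rises were 8 without mutant 1. The ligand gene Tgfb2 went from -2.22, -2.33 and -2.31 to -0.28, -0.33 and -0.37, a rise of 1.96 ± 0.10 (adjusted p = 0.000133). The BMP target Id1 rose by 1.66 ± 0.12, the decoy receptor gene Bambi by 1.47 ± 0.12 and the receptor gene Bmpr1a by 1.16 ± 0.11, with probes at 0.46 and 1.16. The 4 that fell included Inhbc (-0.70), Bmp4 (-0.65) and Tgfb1 (-0.64), and 2 of the 4 passed without control 1, mutant 2 or mutant 3.

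Stellate cells store vitamin A and make matrix in the liver. Of 61 measured, 21 rose (34.4%, against 14.2% of all genes), 5 fell (8.2%, against 13.4%) and 35 did not pass. The median was 0.49 at day 2 and -0.05 at birth. Fbln1 rose by 1.93 ± 0.19, Vim, the intermediate filament of mesenchymal cells, by 1.42 ± 0.15 and the proteoglycan gene Bgn by 1.32 ± 0.14. Col1a1, the main chain of fibrillar collagen, was 2.25, 2.31 and 2.47 in controls and 4.49, 3.19 and 3.72 in mutants, a rise of 1.46 ± 0.32 (adjusted p = 0.0196). That call was lost without control 1, control 2 or mutant 3 (adjusted p from 0.0526 to 0.0612). Of the 5 stellate markers, Des and Col1a1 rose, and Pdgfrb (0.74), Lrat (-0.21) and Acta2 (-0.01) did not pass. The 5 genes that fell were Tnc, Tagln, Ecm1, Tgfb1 and Colec11, from -1.47 to -0.50, and 2 or 3 passed without any single array except control 3. Endothelial genes gave few calls, with 3 of 43 higher (Bmp6, Emcn and Cd34), 5 lower and a median of -0.06. These are 6.98% higher, against 14.2% of all genes, and 11.6% lower, against 13.4%. Pecam1 (0.22 ± 0.11) and Cdh5 (0.11 ± 0.13), which mark all endothelium, did not pass. Wnt2, an endothelial Wnt ligand of the liver, fell by 0.92 ± 0.16, and from 1 to 3 of the 5 falls passed without any single array except control 3.

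Most measured hepatocyte secreted proteins fell. Of 68 such genes 50 fell (73.5%, against 13.4% of all genes), 1 rose and 17 did not pass, with a median of -0.76. The slide medians were -0.91, -1.05 and -0.38, so slide 3 showed the smallest shift. The count of falls was 27, 17, 22 and 21 without control 1, control 2, mutant 1 and mutant 2, and 14 after quantile normalization or 18 in the authors' RMA table, where the medians were -0.40 and -0.49. Mbl2, a mannose-binding lectin, went from 7.86, 7.79 and 6.89 to 5.35, 3.67 and 4.94, a fall of 2.86 on the log2 scale (SE 0.48, adjusted p = 0.0086), or 7.26-fold. The clotting genes F9 and Serpind1 fell by 0.80 ± 0.12 and 1.07 ± 0.16, and the complement gene C6 by 0.94 ± 0.15. Serpina6, encoding corticosteroid-binding globulin, was the exception: it went from 1.78, 1.77 and 1.54 to 3.93, 4.76 and 4.56, a rise of 2.72 ± 0.23 (adjusted p = 0.000772). The albumin gene Alb was saturated on all 6 arrays and gives no reading. Ahsg, Apoc1 and Apoe were saturated on 1 control array each, and C3 on 3 control and 2 mutant arrays, which limits their differences and the list's median.

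Enzymes that handle foreign compounds fell in part. Of 100 measured 43 fell (43%, against 13.4% of all genes), 7 rose (7%, against 14.2%) and 50 did not pass. The median was -0.84, with slide medians of -0.84, -1.26 and -0.31. The falls were 23 without control 2, and the rises 4 without mutant 2 or mutant 3. Inmt, a methyltransferase for amines, was 6.00, 5.69 and 2.44 in controls and 1.03, -1.04 and 1.09 in mutants. It fell by 4.35 ± 1.06 (adjusted p = 0.028), but control 3 stood near the mutants and the call was lost without any array except control 3 (adjusted p from 0.0548 to 0.0836). The carboxylesterase genes Ces3b and Ces1f fell by 3.75 ± 0.67 and 3.39 ± 0.49, and Cyp2g1 by 3.28 ± 0.40. Cyp2e1, the ethanol-inducible cytochrome, fell by 2.27 ± 0.54 (adjusted p = 0.0263), a call lost without control 1, control 2 or mutant 1 (adjusted p from 0.0663 to 0.0778). Adh4 fell by 1.64 ± 0.18. Those that rose included Fmo2, Fmo4 by 1.93 ± 0.18 and Cyp1b1 by 2.11 ± 0.25.

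Bile acid synthesis and transport genes were also read. Of 38 measured 11 fell (28.9%, against 13.4% of all genes), 1 rose (2.63%, against 14.2%) and 26 did not pass. The median was -0.50, and the falls were 6 without control 2 and 7 without mutant 2. The canalicular phospholipid pump gene Abcb4 went from 5.96, 6.04 and 6.06 to 5.05, 4.86 and 5.04, a fall of 1.03 ± 0.11 (adjusted p = 0.00171). Slc51a, a subunit of the basolateral bile acid exporter, fell by 1.83 ± 0.16 and Hsd3b7, a synthesis enzyme, by 1.37 ± 0.21. Fgfr4, the receptor through which gut FGF15 restrains bile acid synthesis, was the member that rose, by 1.39 ± 0.22, with probes from 0.80 to 1.39. Cyp7a1, the rate-limiting enzyme of synthesis, was -1.49, -1.0 and 0.71 in controls and -2.46, -2.55 and -1.43 in mutants, a difference of -1.56 ± 0.61 that did not pass (adjusted p = 0.105, and 0.0183 with the slide as a block).

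Of 52 amino acid and urea cycle genes 21 fell, 4 rose and 27 did not pass, with slide medians of -0.70, -0.94 and -0.11. The falls were 13 with the slide as a block and 8, 5, 2 and 5 without control 1, control 2, mutant 1 and mutant 2. They were 6 after quantile normalization, 10 in the authors' RMA table and 9 with no filter. Tat, the tyrosine aminotransferase that marks hepatocyte maturation, went from 5.15, 5.60 and 5.40 to 3.12, 2.61 and 3.71, a fall of 2.24 ± 0.29 (adjusted p = 0.00354), or 4.71-fold. Gpt2 and Sdsl, a transaminase and a dehydratase gene, rose by 2.62 ± 0.48 and 1.30 ± 0.19, as did Sds and Cbs, and this count of 4 was 2 without control 1, mutant 2 or mutant 3. Of 42 glucose and glycogen genes 18 fell and none rose (1 with the slide as a block), with a median of -0.48. Hk1 fell by 1.17 ± 0.11, the pyruvate carboxylase gene Pcx by 1.15 ± 0.14 and the liver glycogen synthase gene Gys2 by 0.96 ± 0.15. The falls were 11, 8, 9 and 10 without control 1, control 2, mutant 1 and mutant 2. Of 42 fatty acid oxidation genes 16 fell and 1 (Vnn1, lost without any control or mutant 3) rose, with a median of -0.44 that was -0.10 after quantile normalization, where 2 fell. The falls were 10, 7, 6 and 7 without control 1, control 2, mutant 1 and mutant 2. Of 45 lipid synthesis genes 8 fell (17.8%, against 13.4% of all genes) and 1 rose, the desaturase gene Scd2 by 1.71 ± 0.13. Its falls were 3, 2, 2 and 5 without control 2, mutant 1, mutant 2 and mutant 3.

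Of 32 hepatocyte transcription factors measured 7 fell (21.9%, against 13.4% of all genes), 5 rose (15.6%, against 14.2%) and 20 did not pass, with a median of -0.29. Ppara, the fatty acid sensor, went from 2.54, 2.28 and 2.35 to 1.17, 0.86 and 1.47, a fall of 1.22 ± 0.18 (adjusted p = 0.00562), and Tbx3 fell by 1.62 ± 0.22. Cebpa fell by 0.78 ± 0.18 (adjusted p = 0.025), a call lost without control 1, control 2, mutant 1 or mutant 2 (adjusted p from 0.0519 to 0.0764) and with the slide as a block (0.0533). Hnf4a, the central hepatocyte regulator, was 2.16, 2.47 and 2.87 in controls and 1.57, 1.83 and 2.03 in mutants. Its difference of -0.70 ± 0.22 did not pass (adjusted p = 0.0568), but did with the slide as a block (0.0189) and without control 1 (0.0433). The 5 that rose were Gata6 (1.86), Foxa1 (1.48), Zhx2, Zbtb20 (1.20) and Nr5a2 (0.53), where another probe of Gata6 gave -0.52 and Zhx2 was above background in mutants alone, at least 1.77-fold higher. The falls were 3 without control 2, mutant 1 or mutant 2, 3 after quantile normalization and 4 in the authors' RMA table.

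**Figure D3:**
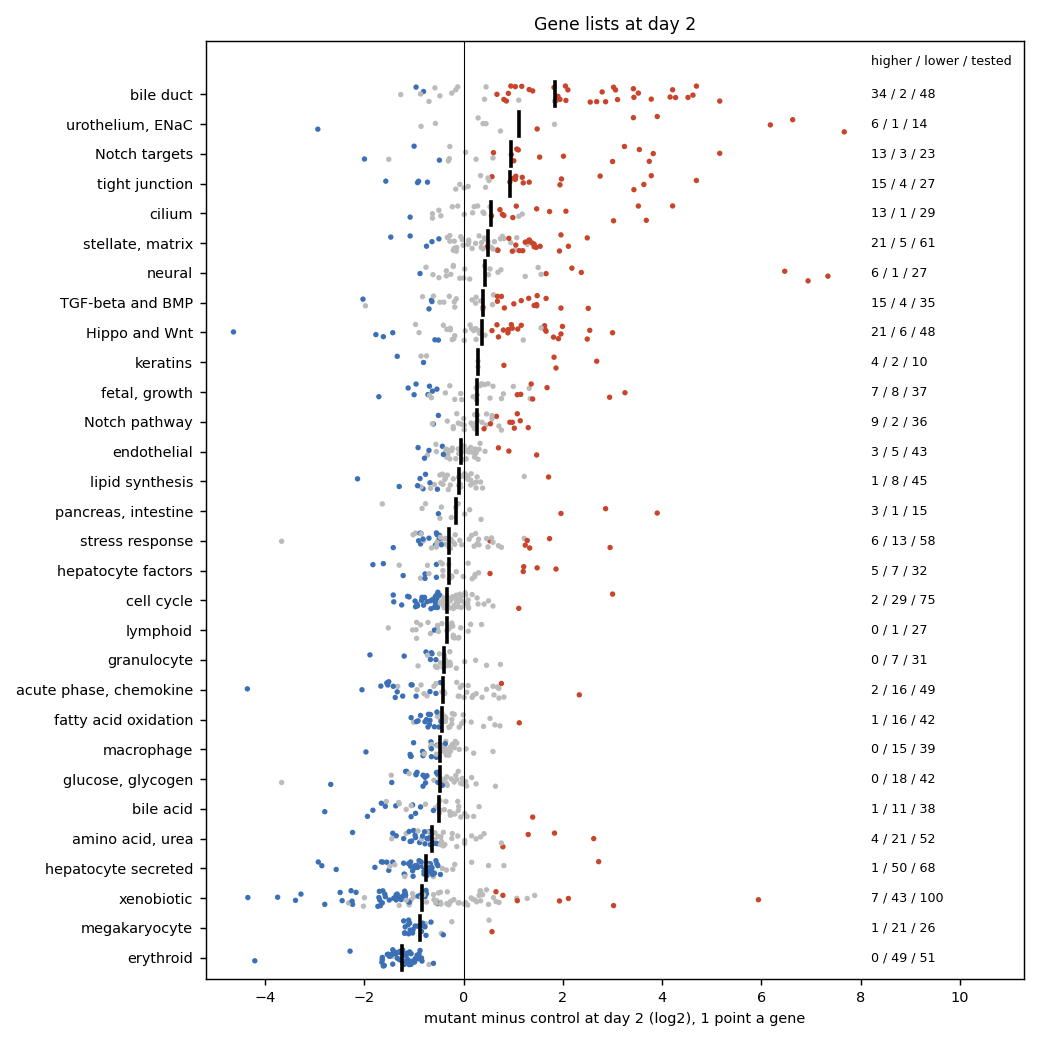
The 30 gene lists, ordered by their median difference at day 2 (black bars, log2 scale). Each point is a measured gene, red where it rose, blue where it fell and grey where it did not pass, with the counts at the right. Bile duct genes stand at the top with 34 of 48 higher, and erythroid genes at the bottom with 49 of 51 lower.

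Among the largest falls was Mettl7b, a methyltransferase-like gene, at 2.28, 2.09 and 2.22 in controls and -2.0, -1.68 and -1.30 in mutants. It fell by 3.86 ± 0.19 (adjusted p = 0.000117), or 14.5-fold, with tightly grouped controls. Tmeff2 differed by -3.82 ± 0.49, and the aldo-keto reductase genes Akr1c20 and Akr1c6 by -2.82 ± 0.49 and -2.80 ± 0.52, and all 3 passed. Serpina7, encoding thyroxine-binding globulin, fell by 2.93 ± 0.62 (adjusted p = 0.0176), a call lost without control 1, control 2, mutant 2 or mutant 3 (adjusted p from 0.051 to 0.0611). The Wnt ligand gene Wnt10a was at -2.11, -2.78 and -1.71 in controls and not well above background in any mutant, at least 16.5-fold lower. The chemokine gene Cxcl9 was at least 7.93-fold lower, the lectin gene Clec2h at least 7.52-fold, Fam155a at least 6.21-fold and the natural killer receptor gene Klrc2 at least 4.29-fold.

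The non-coding transcript of the Rosa26 locus, Gt(ROSA)26Sor, showed the largest lower bound of a fall. Its probe at chr6:113036837-113036896 (mm8) read -2.26, -2.28 and -1.86 in controls and was not well above background in any mutant (-7.37, -6.32 and -7.78), at least 17.3-fold lower. The neighbouring genes Setd5 (0.28 ± 0.13) and Thumpd3 (0.22 ± 0.13) did not pass, and they were picked after their values were seen. Both groups carry the Rosa26 transgene, and the number of copies per pup was not analysed here.

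Nearly all measured erythroid genes fell. Of 51 erythroid genes measured 49 fell (96.1%), none rose and 2 did not pass, Epb42 (-1.44) and Aqp1 (-0.70). The median was -1.25 at day 2 and -0.42 at birth, and the slide medians were -1.30, -1.51 and -0.89. The summed level of the list (linear scale, in units of each array's 75th percentile) was 1896 to 2562 in controls and 843 to 1201 in mutants, with Hba-a1 saturated on 2 control arrays. Gata1, the regulator of erythroid and megakaryocytic genes, went from 2.80, 2.52 and 2.31 to 1.25, 0.66 and 1.08, a fall of 1.54 ± 0.20 (adjusted p = 0.00371), or 2.91-fold. Epor, the erythropoietin receptor gene, went from 3.63, 3.72 and 3.56 to 2.54, 2.49 and 2.71, a fall of 1.06 ± 0.11 (adjusted p = 0.00186). Hbb-bh1, an embryonic beta-like globin, fell by 2.29 ± 0.26, and the blood group gene Xk and the membrane skeleton gene Add2 by 1.30 ± 0.11 and 1.10 ± 0.12. The erythroid markers Klf1, Alas2 and Slc4a1 fell too, from -1.65 to -1.28.

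Megakaryocyte genes followed, with 21 of 26 lower (80.8%), 1 higher and 4 not passed, and a median of -0.89. Gp9 and Gp1bb, subunits of the platelet receptor for von Willebrand factor, fell by 1.19 ± 0.13 and 1.02 ± 0.11. The single rise, Gng11 at 0.57, was lost without control 1, control 3 or any mutant. In the fit of all 11 arrays 3 members fell. Of 39 macrophage genes 15 fell, with none higher (1 with the slide as a block) and a median of -0.48. Siglec1 fell by 1.97 ± 0.27 and the haemoglobin scavenger receptor gene Cd163 by 1.08 ± 0.15. Adgre1, encoding F4/80, fell by 0.82 ± 0.17 (adjusted p = 0.0175), a call lost without control 1, control 2 or mutant 2 (adjusted p from 0.0561 to 0.0593). The count was 7, 6, 7 and 9 without control 1, control 2, mutant 2 and mutant 3. Of 31 granulocyte genes 7 fell (22.6%, against 13.4% of all genes). None of the 4 markers Mpo, Elane, Ngp and Camp passed, with differences from -0.47 to -0.37. The mast cell and basophil proteases Mcpt8 (-1.89 ± 0.26) and Cpa3 (-1.20 ± 0.28) were among the falls. So were Csf1r, also on the macrophage list, and Hp, also on the hepatocyte secreted list. The remaining falls were Csf3r, Cybb and Ltf. The count was 2, 1, 2 and 1 without control 1, control 2, mutant 2 and mutant 3, and 1 member rose with the slide as a block or without control 3 or mutant 1. Of 27 lymphoid genes 1 fell (3.7%, against 13.4% of all genes). It was Ptprc (-0.59 ± 0.14), a call lost without control 1, control 2, mutant 2 or mutant 3 (adjusted p from 0.0702 to 0.0842). With the slide as a block 9 fell, including Dntt (adjusted p = 0.0154) and Nkg7 (0.0226).

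Of 75 cell cycle genes measured 29 fell, 2 rose and 44 did not pass, with a median of -0.33 and slide medians of -0.43, -0.02 and -0.60, beside all-gene medians of -0.08, -0.04 and -0.10. Mki67, a marker of dividing cells, went from 5.91, 5.79 and 5.78 to 5.12, 4.85 and 4.98, a fall of 0.85 ± 0.12 (adjusted p = 0.00452). The ribonucleotide reductase gene Rrm1 fell by 0.81 ± 0.10. Many mitosis genes of the list did not pass, among them Cdk1 (-0.07), Aurka (-0.13), Bub1 (-0.08), Kif23 (-0.04) and Top2a (-0.25). Others fell, among them Birc5 (-0.58), Tpx2 (-0.53) and Ube2c (-0.57). The 2 that rose were Ccnd1 and Cdkn2b, encoding an inhibitor of the cyclin D kinases, which was above background on all 3 mutant arrays and 1 control array. Cdkn1b ranked among the falls at -1.41, but its 3 probes ran from -1.41 to 0.52. Erythroid genes fell on the same arrays, and their part in the cell cycle list was not tested. The falls numbered 18 without mutant 1 and 19 without mutant 3.

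**Figure D4:**
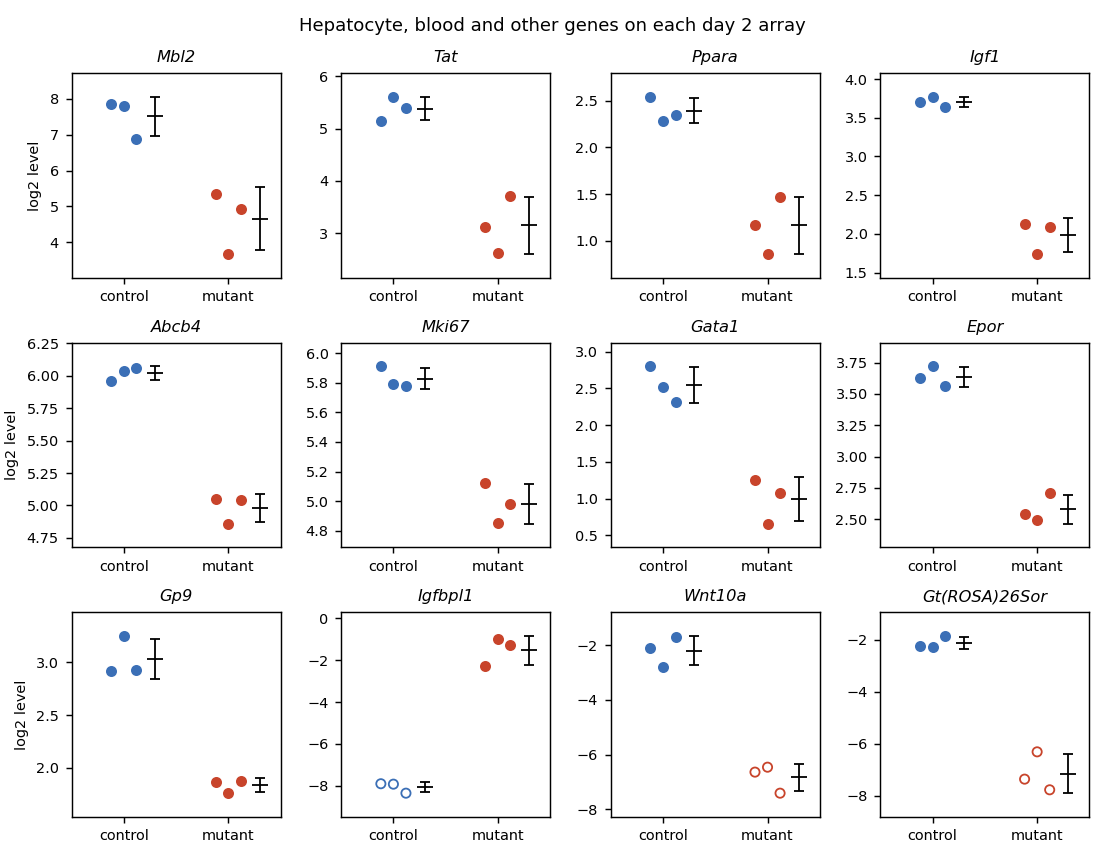
Levels of 12 further genes on each array (log2, relative to the array's 75th percentile), with the mean ± SD beside the points and open points where no array of that group was well above background. The mutant points lie below the control points in every panel except Igfbpl1, which was read above background in mutants alone.

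Of 37 fetal and growth genes 7 rose (18.9%, against 14.2% of all genes), 8 fell (21.6%, against 13.4%) and 22 did not pass, with a median of 0.27. The counts were 10 and 3 after quantile normalization, where the median was 0.56, and 10 and 3 in the authors' RMA table. Mycn went from -3.57, -3.15 and -2.46 to -0.02, -0.03 and -0.31, a rise of 2.94 ± 0.28 (adjusted p = 0.00124), while its other probe gave 0.81. Hmga2, a chromatin protein of embryonic tissue, and the RNA-binding protein gene Igf2bp2 rose by 1.68 ± 0.22 and 1.15 ± 0.12. Igf1, the growth factor that liver releases after birth, went from 3.70, 3.77 and 3.64 to 2.13, 1.74 and 2.09, a fall of 1.71 ± 0.14 (adjusted p = 0.000682), or 3.28-fold. Afp, whose promoter drives the Cre transgene, was 9.33, 9.14 and 8.95 in controls and 8.54, 8.66 and 8.60 in mutants. Its fall of 0.54 ± 0.13 (adjusted p = 0.0265) was lost without any single array except control 3 (adjusted p from 0.062 to 0.0825), and was 0.04 in the opposite direction after quantile normalization.

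Stress response genes gave 6 rises and 13 falls among 58. The glutathione genes Gclc and Gpx2 rose by 1.33 ± 0.12 and 2.95 ± 0.36. Mthfd2 and Asns, targets of the ATF4 pathway, fell by 1.42 ± 0.15 and 0.86 ± 0.11. The falls were 6, 6, 4 and 7 without control 2, mutant 1, mutant 2 and mutant 3. Of 49 acute phase and chemokine genes 16 fell (32.7%, against 13.4% of all genes) and 2 rose (4.08%, against 14.2%). The chemokine gene Cx3cl1 rose by 2.33 ± 0.19 and Il1r1 by 0.76 ± 0.19. The serum amyloid P gene Apcs fell by 1.53 ± 0.21 and Steap4 by 1.42 ± 0.18. The falls were 10 without control 1, and the rises 1 without control 1, mutant 2 or mutant 3 and 5 with the slide as a block. In the pancreas and intestine list 3 of 15 rose (20%, against 14.2% of all genes). They were the villin gene Vil1 by 1.96 ± 0.19, Pdx1 by at least 3.09-fold and Reg1 by 3.90 ± 0.89. The Reg1 call was lost without any mutant array (adjusted p from 0.0574 to 0.0707). Pdx1 was above background in mutants alone, and 1 member rose when only genes above background on all 6 arrays were kept. Lgr5 alone fell, by 0.51 ± 0.12 (adjusted p = 0.0232), lost without any array except control 3 (adjusted p from 0.0592 to 0.0763). The gut factor Cdx2 was above background on no array, Ins2 on 3 of the 6, and the pancreatic genes Cpa1 (0.12) and Cela1 (-0.16) did not pass.

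The day 2 differences were set beside those of birth, which come from other pups and, at birth, from male controls and female mutants. Of the genes higher at day 2, 1694 of 2162 (78.4%) had a difference above 0 at day 0, as did 55.3% of the genes above 0 at day 2 that did not pass. Of the genes lower at day 2, 1614 of 2032 (79.4%) were below 0 at day 0, against 56.2% of the rest. At day 0 itself, 240 of the higher and 76 of the lower genes passed in the same direction. How many of all genes passed at day 0 was not counted, so no excess is read from these counts. The test of the difference between days, on all 11 arrays, called 55 genes with a higher value at day 2 (0.362% of 15191) and 12 with a lower value (0.079%). The counts were 23 and 5 with the slide as a block. With pup sex as a covariate, a fit chosen after seeing the data in which the effect of sex is estimated from the day 2 arrays, they were 4 and 1. Without mutant day 0 replicate 3 they were 264 and 72, and they ran from 6 to 91 and from 0 to 12 without any other single array.

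Tgfb2 had a difference of -0.56 at day 0 and 1.96 at day 2 (difference between days 2.52, adjusted p = 0.00621, and 0.0701 with pup sex as a covariate). Rgma had 1.45 and 5.55 (difference between days 4.11, adjusted p = 0.019, and 0.183 with sex), and Krt7 had -0.27 and 1.82 (2.09, adjusted p = 0.0391, and 0.253 with sex). Mettl7b had -0.42 at day 0 and its fall at day 2 (-3.44, adjusted p = 0.0351, and 0.243 with sex). Igfbpl1, an insulin-like growth factor binding protein gene, was above background on no array at day 0. At day 2 it read -2.30, -0.99 and -1.30 in mutants with no control above background, at least 22.4-fold higher, and it still passed with sex as a covariate (adjusted p = 0.00998). Wnt10a was likewise above background on no array at day 0, and at day 2 in controls alone. Nrarp differed by 3.75 at birth and 3.82 at day 2, and its difference between days of 0.08 did not pass.

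**Figure D5:**
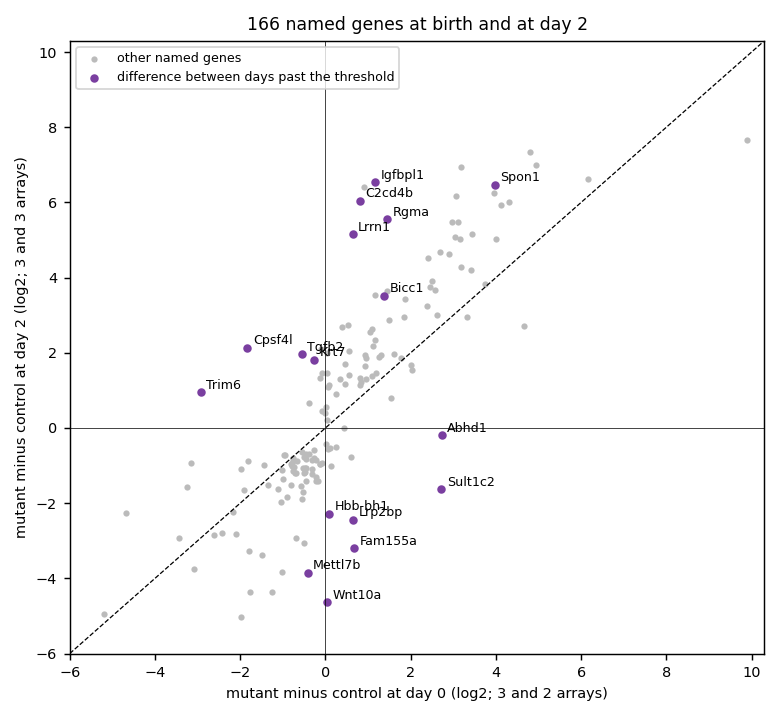
Differences between mutants and controls at birth (horizontal, 3 and 2 arrays) and at day 2 (vertical, 3 and 3 arrays) for 166 named genes, on the log2 scale, with the line of equal differences. The 17 labelled genes passed the test of the difference between days, 1 of them (Igfbpl1) also with pup sex as a covariate, and 5 have a group with no array above background, so their positions are not exact.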

How the data were processed

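Liver RNA was amplified, labelled with Cy3 and hybridised to 1-colour Agilent arrays (design 014868), per the labels' protocols and the file headers. The authors deposited scanner output from Feature Extraction 9.5.3.1 (protocol GE1-v5_95_Feb07), whose processed signal is an intensity, per the file headers, and a table of log2 values made with RMA, per the submitters' processing notes, used as an alternative. Here log2 intensity was set relative to each array's 75th percentile, outlier spots were dropped and repeated spots averaged. A probe was tested if well above background on all 3 arrays of a day 2 group, and each of 15192 genes was read from its brightest probe. Probe names came through RefSeq accessions for 23460 probes. The main fit used limma 3.58.1 (R 4.3.3) on the 6 day 2 arrays with Benjamini-Hochberg adjustment, and differences between days on 11. For a fold given as "at least", a group below background was raised, array by array, to the faintest level that still counted as above background there.

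The replicate number is the slide. Control and mutant arrays with the same number deviated together from their group means (correlations over genes of 0.411, 0.145 and 0.258, against -0.284 to 0.00779 for other pairs), so the numbers were taken to pair the arrays. The main fit compared group means and did not use this pairing. It entered only the slide medians and the alternatives with the slide as a block or a slide left out. Each group has the same position on every slide, so position and group cannot be told apart. The p-values measure the spread between these samples. Named genes were 32 fixed by symbol, the 10 largest rises and falls measured on both sides, the 6 largest bounds in each direction, up to 4 members per list (lowest p first) and the 6 largest differences between days each way, leaving out clone names and sex-linked genes. Other members were named after their values were seen. The members and lists were chosen with earlier results of these data known. The 20 alternatives covered scaling, background, filters, probes, the fit, slide, sex and arrays left out. The fit was also run on simulated data as a check of the code, and no outcome of that is given here. A few genes are not reported here.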

Additional observations from a re-analysis of the deposited data

Results flagged for a closer look

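The mutant minus control difference differed between day 2 and day 0 for 17 of the named genes, by the limma test of that difference on all 11 arrays. The values are the day 2 difference minus the day 0 difference on the log2 scale. They were above 0 for Igfbpl1 (5.36), C2cd4b (5.25), Lrrn1 (4.51), Rgma (4.11), Cpsf4l (3.98), Trim6 (3.88), Tgfb2 (2.52), Spon1 (2.50), Bicc1 (2.14) and Krt7 (2.09). They were below 0 for Wnt10a (-4.68), Sult1c2 (-4.35), Fam155a (-3.87), Mettl7b (-3.44), Lrp2bp (-3.09), Abhd1 (-2.93) and Hbb-bh1 (-2.37). For 5 of them (Igfbpl1, Lrrn1, Wnt10a, Fam155a and Lrp2bp) at least 1 group had no array above background, and C2cd4b and Spon1 were above it on 1 day 2 control array, so these values rest in part on readings below background and have no exact size or order. At birth both controls were male and all mutants female. With pup sex as a covariate, added after this was seen, all 17 kept their sign and 1, Igfbpl1, passed (adjusted p = 0.00998). For Abhd1 and Trim6 the day 0 differences were 2.73 and -2.93, and the day 2 differences of -0.20 and 0.95 did not pass, although Trim6 passed with the slide as a block (adjusted p = 0.00895). Sult1c2 had 2.72 at birth and -1.63 at day 2, and the day 2 call was lost without control 1, control 2, mutant 1 or mutant 2 (adjusted p from 0.0587 to 0.0635).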

How the results depend on the processing

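Counts of higher and lower genes were 2162 and 2032. With all 11 arrays in the fit the lower count was 1127, with no filter 1278. Leaving out 1 array gave 1529 to 1993 higher and 957 to 2069 lower. Leaving out a slide, chosen after seeing the data, gave 841 and 265 (slide 1), 911 and 226 (slide 2) and 1464 and 1365 (slide 3). The slide as a replicate block gave 2186 and 2118, and for the difference between days 23 and 5 in place of 55 and 12. Pup sex as a covariate, added after seeing the data, gave 4 and 1 there. Leaving out 1 array gave 6 to 264 and 0 to 72 there. Of named genes, Eprn (-0.45, above background on all 6 arrays), Zhx2 (-0.03, normexp background), Hp (0.08, quantile) and Afp (0.04, quantile) changed sign. Over 20 alternatives the named genes kept direction and side of the threshold in 3012 settings, lost the threshold in 233 and gained it in 32. The replicate block changed the calls of Trim6, Nkg7, Dntt, Hnf4a, Cyp7a1 and Cebpa, and of no other named gene. Signal limits genes near background, and saturation limits Alb, C3, Ahsg, Apoc1, Apoe and Hba-a1. The cause of these shifts was not tested.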

Other observations

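A set of interferon response genes, put together after its values were seen, is given as a description with no test. It holds genes that interferon induces, with the cytokine gene Ifng and the receptor genes Ifngr1 and Ifnar1. Of 49 measured, 31 fell, where 13.4% of all genes tested fell, 1 rose (Gbp6, 1.07) and 17 did not pass. The median was -1.08, with slide medians of -1.14, -0.62 and -1.21, and a median of 0 at birth. The GTPase genes Igtp and Iigp1 differed by -1.85 and -2.24, the RNA sensor pathway gene Oas2 by -2.16, Ifit3 by -2.05 and the transcription factor gene Irf7 by -1.34. Oas3 was at least 3.09-fold lower, with no mutant array above background. Macrophage and lymphoid genes are described above, and their part in this pattern was not tested.

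The ribonuclease genes Ang, Ang2, Ang4, Ang6 and Rnase4, also chosen after their values were seen, all fell, by -2.20 to -1.89. Slide medians were -2.69, -2.56 and -0.88. Several are near-identical copies, so probes may read more than 1 of them. All 5 measured globin genes fell, among them Hbb-bt (-0.72) and the embryonic gene Hba-x, which was above background on all 3 control arrays and 1 mutant array, with a median of -1.50 at day 2 and 0.08 at birth.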
